A study of Mus musculus with 10 samples.

Results

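Of the 24500 genes counted in ChIP-seq of mouse ES cells, 2562 had a promoter marked by H3K27me3 in control cells, and 108 of these had a lower relative level of the mark in ex14D-Ezh2 cells. The members were chosen by their H3K27me3 values. A promoter counted as marked when its H3K27me3 level was at least 2-fold over control input in both control libraries, after adding 1 to each CPM (counts scaled to a library's total of reads on genes), with at least 20 reads in both. It became a member when both ex14D libraries were at or below 0.5 times the lower control library. The members were 4.22% of the marked promoters, whereas 43 promoters, or 1.68%, were at least 2-fold above the higher control library in both ex14D libraries. Because the rule used them, the H3K27me3 levels of the members are described below without a test. EZH2 was measured in separate libraries that the rule did not use.

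H3K27me3 is the trimethylated form of lysine 27 of histone H3. It is made by Polycomb repressive complex 2 (PRC2), in which EZH2 or its paralog EZH1 carries the catalytic SET domain, and it is found at CpG-rich promoters of silent genes. In ES cells it covers many developmental genes, among them the Hox clusters, which are held silent until differentiation.

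All libraries came from the mouse ES cell line E14, with the strain given as 12910la. The control cells are labelled as wild-type, and the mutant cells carry the label of a knockout of exon 14 of Ezh2. According to the study's methods the exon was disrupted with CRISPR-Cas9, so that only ex14D-EZH2, the splice form without this exon, stayed functional. The labels name no treatment and no other altered gene. Each genotype had 2 H3K27me3 libraries, 2 EZH2 libraries and 1 input library of unselected chromatin, 10 in all. The labels do not say whether libraries of a genotype came from separate cultures or from separate clones, so any spread between them may be technical. Because whole populations were profiled, fewer cells with the mark and less of the mark in each cell cannot be told apart.

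The 250 bases upstream of the start site are shown for 5 members that the results below return to, 3 with large differences in H3K27me3 and 2 with lower EZH2 counts. They belong to Ubtd1 (ubiquitin domain containing, chr19:41981513-41981762, plus strand), Cdkn2c (an inhibitor of the cyclin D-dependent kinases, chr4:109666757-109667006, minus strand), Pdgfa (a platelet-derived growth factor chain, chr5:138994945-138995194, minus strand), the unnamed RIKEN gene 2700081O15Rik (chr19:7417375-7417624, plus strand) and Klf4 (a pluripotency transcription factor, chr4:55532476-55532725, minus strand). Sequences are from RefSeq, build GRCm38.p6, and run 5′ to 3′ along the gene. Capitals mark CpG dinucleotides, of which the promoters held 22, 29, 28, 25 and 32 in this order.
Ubtd1: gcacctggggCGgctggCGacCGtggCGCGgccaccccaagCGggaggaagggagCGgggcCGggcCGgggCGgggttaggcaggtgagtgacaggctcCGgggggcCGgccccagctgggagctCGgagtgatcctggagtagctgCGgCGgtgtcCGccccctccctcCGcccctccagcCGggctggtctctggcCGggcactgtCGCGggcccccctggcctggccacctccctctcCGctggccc
Cdkn2c: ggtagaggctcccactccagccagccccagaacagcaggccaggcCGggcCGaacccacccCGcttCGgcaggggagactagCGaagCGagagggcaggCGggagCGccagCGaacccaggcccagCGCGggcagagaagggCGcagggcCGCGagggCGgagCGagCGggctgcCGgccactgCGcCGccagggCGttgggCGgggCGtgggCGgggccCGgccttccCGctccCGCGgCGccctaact
Pdgfa: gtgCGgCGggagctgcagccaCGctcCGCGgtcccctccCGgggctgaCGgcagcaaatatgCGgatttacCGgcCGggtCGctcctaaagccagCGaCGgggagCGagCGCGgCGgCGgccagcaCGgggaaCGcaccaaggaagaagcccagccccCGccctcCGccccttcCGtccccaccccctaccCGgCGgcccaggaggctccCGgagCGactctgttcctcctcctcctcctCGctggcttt
2700081O15Rik: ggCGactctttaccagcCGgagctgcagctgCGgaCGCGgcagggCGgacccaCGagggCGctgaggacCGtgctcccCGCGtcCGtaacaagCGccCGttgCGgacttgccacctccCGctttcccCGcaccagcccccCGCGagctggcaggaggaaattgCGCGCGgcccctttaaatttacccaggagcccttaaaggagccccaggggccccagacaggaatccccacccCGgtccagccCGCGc
Klf4: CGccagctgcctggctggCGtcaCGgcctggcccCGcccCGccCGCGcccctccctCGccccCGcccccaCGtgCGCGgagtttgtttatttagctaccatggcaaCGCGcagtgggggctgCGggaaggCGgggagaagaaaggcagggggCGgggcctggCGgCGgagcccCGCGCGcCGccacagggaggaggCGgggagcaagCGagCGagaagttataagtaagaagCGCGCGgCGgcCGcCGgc

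All 5 stretches held the GC box GGGCGG on at least 1 strand. A RefSeq promoter whose start site lay inside the counted window was at hand for 77 of the members. GGGCGG, read on both strands, was present in 70.1% of these 77, in 64.6% of 1697 other marked promoters and in 43.0% of all 17936 promoters matched. Each GGGCGG contains a CpG, so the motif and the CpG count overlap. The TATA element TATAAA was present in 3.90% of members, 7.66% of other marked promoters and 12.2% of all promoters, and CCAAT in 27.3%, 29.5% and 36.4%. The letters TTCCCGC occurred in the Cdkn2c and Klf4 promoters and in 6.49% of members against 5.02% of all promoters. CACGTG occurred in the Klf4 promoter and in 5.19% of members against 6.86% of all. Over the whole 1 kb window around the start site, members had a median of 81.5 CpGs and 65.7% GC, against 67 CpGs and 62.2% GC in other marked promoters and 40 CpGs and 54.8% GC in all genes placed. The ratio of observed to expected CpGs had a median of 0.780 in members and 0.702 in other marked promoters. A ratio of at least 0.6 was found in 80 of the 108 members (74.1%), near the 71.4% of other marked promoters, and in 45.0% of all genes placed.

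Reads on genes came to 594289 and 937207 in the control H3K27me3 libraries, 1450937 and 1248018 in ex14D, and 409371 and 416778 in the inputs. They made up 5.65% and 5.98% of all counted reads in control but 7.58% and 6.86% in ex14D. A CPM is therefore a share of a library's promoter reads, and no added standard ties it to the amount of the mark per cell. Over the 14883 promoters that passed a filter on low counts, the median log2 ratio of ex14D to control CPM was -0.45, and -0.02 after TMM scaling. In control cells, Hox promoters had a median of 9.67-fold over input and promoters of naive pluripotency genes 0.313-fold, so these promoter marks did not go against the labelled cell type. The methods give 1 kb promoter windows for read counting. The H3K27me3 counts had little relation to gene length (Spearman's rho 0.160 to 0.174 across 13886 genes, which are not independent), but the EZH2 counts followed it (rho 0.876 to 0.913). They are therefore taken here as counts over genes, which goes against the stated windows, and every EZH2 CPM below rests on that reading.

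Members had a moderate level of H3K27me3 in control cells and, by CPM, a level near that of input in ex14D cells. Their median was 141 and 130 CPM in the control libraries (lowest 35.3 and 36.3, highest 446 and 301), and 48.2 and 40.5 CPM in the ex14D libraries (lowest 9.65 and 8.01, highest 136 and 131). In input the median was 41.5 CPM for control and 48.0 CPM for ex14D. By CPM, the median level over input was 3.10-fold in control and 0.953-fold in ex14D. Both ex14D libraries were below their own input CPM at 50 members and at least 2-fold over it at 7 (Ankrd13b, Dlgap4, Fam189a1, Hcn2, Mir5126, Ptchd2 and Unc79). Scaling matters here, because reads on genes were 1.92% of counted reads in ex14D input but 7.58% and 6.86% in ex14D H3K27me3. Members had a median of 70 and 50.5 reads in the ex14D H3K27me3 libraries and 20 in ex14D input, which held more counted reads. A CPM near input therefore does not show a loss of the mark to background. A level at input was still above that of active genes, since promoters of ribosomal proteins had a median of 0.139-fold in control and 0.188-fold in ex14D. Other marked promoters had 4.62-fold in control and 4.24-fold in ex14D, and 33 of 2454 were below their own input in both ex14D libraries. The log2 ratio of ex14D to control CPM had a median of -1.49 in members and -0.08 in other marked promoters. After TMM scaling the medians were -1.05 and 0.36. With TMM effective library sizes in the rule, 28 of the 108 members remained, and with all counted reads as library size 34 remained.

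**Figure D1:**
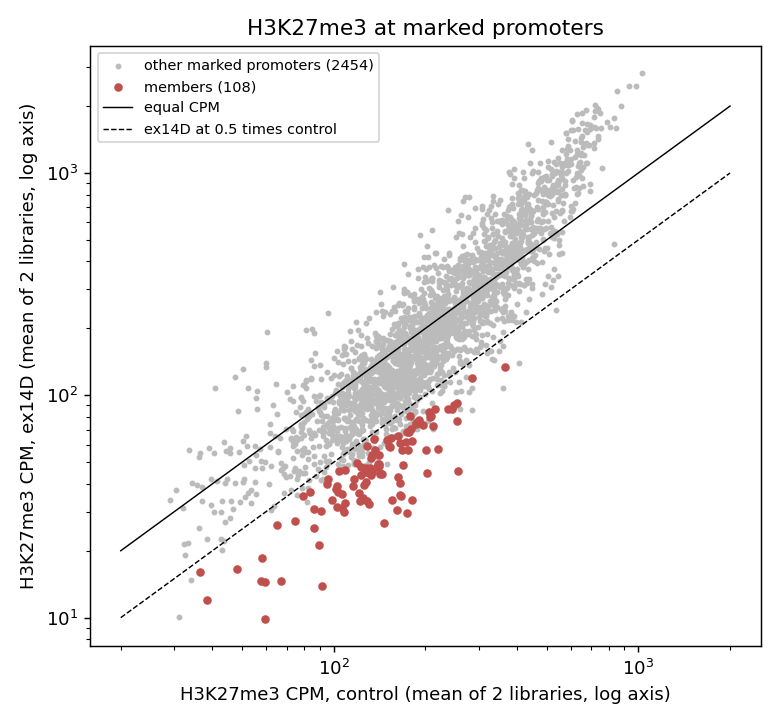
H3K27me3 level of each of the 2562 marked promoters, as the mean CPM of 2 control libraries (x axis) against the mean CPM of 2 ex14D libraries (y axis), both on log axes. The 108 members (red) lie below the dashed line of 0.5 times control, toward the left of the cloud, and the promoters with the highest control levels lie above the line of equal CPM; a few grey points below the dashed line are not members because the rule uses single libraries.

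The 10 lowest ratios of mean ex14D to mean control CPM were those of Pbx3, Ubtd1, Cdkn2c, Rnf220, Gfod1, Pdgfa, Ttc9b, Igf2bp2, Baz1a and Tle3. Pbx3, a homeodomain partner of Hox proteins on chromosome 2, had 103 and 81.1 CPM in control and 11.7 and 16.0 CPM in ex14D, a ratio of 0.151. Both ex14D values were below the inputs of 39.1 CPM in control and 52.8 CPM in ex14D. Ubtd1 had 60.6 and 58.7 CPM in control and 11.7 and 8.01 CPM in ex14D, but its input also differed, with 24.4 CPM in control and 9.60 CPM in ex14D. Cdkn2c had 197 and 152 CPM in control against 37.2 and 21.6 CPM in ex14D, with inputs of 41.5 and 52.8 CPM. At these 3 genes both control libraries lay above both ex14D libraries, as the rule requires of every member. The libraries of a genotype still differed, as with 37.2 and 21.6 CPM in ex14D at Cdkn2c. Rnf220, which encodes a ubiquitin ligase, had 382 and 130.2 CPM in control and 57.2 and 34.5 CPM in ex14D. Igf2bp2, an RNA-binding protein gene, had 246 and 86.4 CPM in control and 38.6 and 32.1 CPM in ex14D. In both genes the control libraries differed from each other by more than the lower one differed from the higher ex14D library. Pdgfa had 162 and 199.5 CPM in control and 29.6 and 37.7 CPM in ex14D, at inputs of 39.1 and 36.0 CPM. Tle3, a Groucho corepressor, had 188 and 123 CPM in control and 43.4 and 24.0 CPM in ex14D. Baz1a, a subunit of ISWI chromatin remodelers, had 187 and 143 CPM in control and 36.5 and 34.5 CPM in ex14D. Across members, the higher control library was a median of 1.13 times the lower one, and by more than 1.5 times at 9 members, Rnf220 being the most extreme at 2.93 times. In ex14D the median was 1.22 times, with 14 members over 1.5 times. Replicate 1 was the higher ex14D library at 89 of the 108 members and the higher control library at 71.

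**Figure D2:**
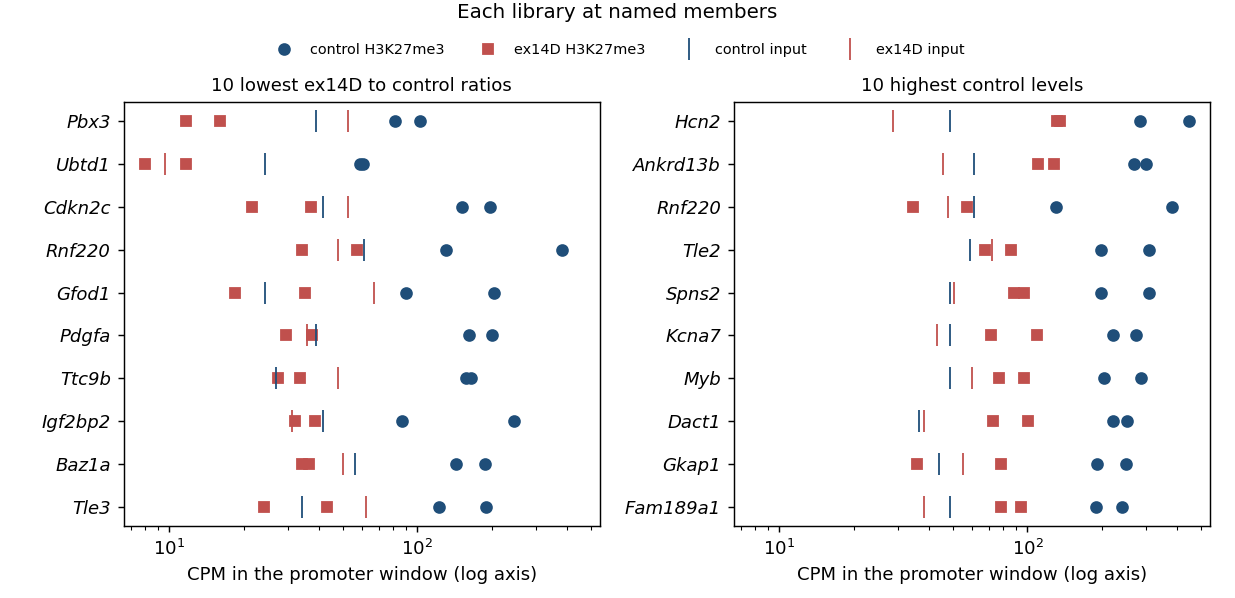
CPM in the promoter window (log axis) of every H3K27me3 library (circles, control; squares, ex14D) and of each input (blue and red bars) for the 10 members with the lowest ex14D to control ratio (left) and the 10 with the highest control level (right). At the left most ex14D squares lie at or below the input bars, while at the right squares such as those of Hcn2 (136 and 131 CPM) stay above them.

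The 10 members with the highest control levels were Hcn2, Ankrd13b, Rnf220, Tle2, Spns2, Kcna7, Myb, Dact1, Gkap1 and Fam189a1. Hcn2, a pacemaker channel gene, had 446 and 284 CPM in control and 136 and 131 CPM in ex14D, so it was 7.34-fold over input in control and still 4.52-fold in ex14D. Ankrd13b had 268 and 301 CPM in control and 128 and 111 CPM in ex14D. Kcna7, a voltage-gated potassium channel gene, had 274 and 222 CPM in control and 109 and 71.3 CPM in ex14D. These 3 genes kept a level above input in both ex14D libraries. Myb, a transcription factor of blood progenitors, had 286 and 203 CPM in control and 96.5 and 76.9 CPM in ex14D. Dact1, which restrains Wnt signaling through Dishevelled, had 252 and 222 CPM in control and 100.6 and 72.9 CPM in ex14D. Tle2, the second Groucho gene among the members, had 309.6 and 197 CPM in control and 85.5 and 67.3 CPM in ex14D, where the input was 72.0 CPM. Hcn2, Ankrd13b and Fam189a1 were thus also among the 7 members still at least 2-fold over input by CPM, while the CPM of Tle2 were near that of its input.

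By textbook roles, assigned here once the members were known, 60 members fell into 7 groups, and 48 were left ungrouped. The ratios of ex14D to control CPM overlapped among all groups. The 13 transcription and chromatin regulators (Pbx3, Tle2, Tle3, Klf4, Myb, Sp6, Tshz3, Elk3, Arntl, Jmjd1c, Baz1a, Ppargc1b and Phf21b) had a median ratio of 0.314, from 0.151 to 0.468. The 12 growth factor and Wnt pathway genes had a median ratio of 0.357, from 0.186 at Pdgfa to 0.443 at Apcdd1. Among them Fzd8 is a Wnt receptor, Frat1 activates the pathway, and Dact1 and Apcdd1 inhibit it, so both directions of action were represented. Fzd8 had 188 and 141 CPM in control and 69.6 and 52.1 CPM in ex14D, and Frat1 had 143 and 138 CPM in control and 50.3 and 48.1 CPM in ex14D. Kit, the stem cell factor receptor, had 155 and 124.8 CPM in control and 54.4 and 44.1 CPM in ex14D, below its ex14D input of 74.4 CPM. The 9 ion channel and receptor genes had a median ratio of 0.352 and the narrowest range, from 0.302 to 0.404. They hold Hcn2, the potassium channel genes Kcna7, Kcnh4 and Kcnab2, the glycine receptor Glra1, the NMDA receptor subunit Grin3b and the orexin receptor Hcrtr2. The 9 synapse and adhesion genes, among them Bsn, Shisa7, Ncam1 and Nectin1, had a median ratio of 0.343. Metabolic enzymes and transporters numbered 8 with a median ratio of 0.390, ubiquitin pathway genes 5 with 0.330, and RNA-binding and translation genes 4 with 0.294. Rdh10, which oxidizes retinol on the way to retinoic acid, had the lowest ratio of the metabolic group at 0.218, with 70.7 and 64.0 CPM in control and 16.5 and 12.8 CPM in ex14D.

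The families of developmental regulators best known as PRC2 targets held no member, but each such count, taken alone, was near the background share. The lists were not counted together. Of 38 marked Hox cluster genes 0 were members, and 12 were in the group at least 2-fold higher in ex14D by CPM, which held 1.68% of all marked promoters. A CPM is a share of promoter reads, so this does not show more of the mark per cell. In ex14D-Ezh2 cells the paper reports less H3K27me3 by Western blot, and by ChIP-PCR at genes including Hoxa10 and Hoxd9. The same count of 0 members held for 26 forkhead, 13 Sox, 12 Nkx, 12 LIM homeobox, 11 T-box, 8 Pax and 4 GATA factors with marked promoters, for the 20 neural, 17 mesoderm and primitive streak, 11 trophectoderm and 9 endoderm genes, and for 17 Wnt ligands. At 4.22% of marked promoters, 1 or 2 members would be the background share of 38 genes, so a count of 0 in a list of this size or smaller is near the background. By CPM, the median log2 ratio of marked genes ran from 0.33 (endoderm) to 1.10 (Hox) across these lists. In other marked promoters it was -0.08. Hox promoters also had a median of 9.67-fold over input in control, and 0 of 385 marked promoters at 8-fold or more were members. Whether the counts of 0 go with family or with control level was not tested. Klf4 was the only member among 3 marked genes of naive pluripotency, with 156 and 108 CPM in control and 53.8 and 50.5 CPM in ex14D, at inputs of 44.0 and 45.6 CPM. Fgf20 was 1 of 10 marked FGF ligands, and Kcna7, Kcnab2 and Kcnh4 were 3 of 50 marked potassium channel genes, near the background share. Gpr158 was 1 of 17 orphan receptors, and Mir146b, Mir5126 and Mir6991 were 3 of 39 microRNA genes. Genes listed under symbols of predicted genes or RIKEN clones held 5 members among 142 marked promoters. These were 1110008P14Rik, 2700081O15Rik, 5330417C22Rik (Elapor1 in RefSeq), 6430548M08Rik and Gm2027. Magee1 was 1 of 2 marked genes of the melanoma antigen and X-linked testis families. Solute carriers had 0 members among 59 marked promoters, and collagen chains 0 among 15.

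At the limit of the rule, members and nonmembers had nearly the same values. The higher ex14D library was 0.499 times the lower control library at Mir146b and 6430548M08Rik and 0.49996 times at Fam189a1, all inside. It was 0.502 times at Mtus2, 0.503 times at Kcns2 and 0.504 times at Nrg2, all outside. Nrg2, a neuregulin gene, had 353 and 213 CPM in control and 108 and 64.1 CPM in ex14D, a larger difference of means than at many members.

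Membership depended on the level of the mark in control cells. Among marked promoters grouped by the lower control library over input, 61 of 751 (8.12%) between 2- and 3-fold were members, 27 of 494 (5.47%) between 3- and 4-fold, 20 of 932 (2.15%) between 4- and 8-fold, and 0 of 385 at 8-fold or more. The promoters with higher relative levels in ex14D had the opposite order, with 0, 0, 12 and 31 in the same groups. Read counts were lowest in the weakest groups and enter the rule, and the part of counting error in these shares was not tested. Member windows held 21 to 265 and 34 to 282 reads in the control libraries, 14 to 197 and 10 to 164 in ex14D, and 4 to 29 and 1 to 38 in the inputs. The ex14D level over input of Dlgap4, the highest of the members at 5.17-fold, rested on 1 input read.

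Called H3K27me3 peaks, made by the authors from the same libraries, were missing at some members in ex14D and narrower at most of the rest. A MACS2 peak overlapped the promoter window of 107 and 108 members in the control libraries and of 91 and 74 in the ex14D libraries. Of 107 members with a peak in both control libraries, 72 (67.3%) had one in both ex14D libraries and 14 in neither. Of 2424 other marked promoters with a peak in both control libraries, 2397 (98.9%) kept it in both and 0 had it in neither, and over all placed genes 3682 of 4394 (83.8%) kept it in both. Because the rule chose members by low counts in these same ex14D libraries, a lower share at members was built in. The median width of the peaks at members was 4.53 and 5.75 kb in control and 3.25 and 2.29 kb in ex14D, against 5.77 and 7.40 kb and 5.84 and 4.97 kb at other marked promoters. These medians cover the peaks that were called. Where a member had a peak in both genotypes, it was narrower in ex14D at 77 of 91 members in replicate 1 and at 72 of 74 in replicate 2. The choice of members by low ex14D reads favored narrower peaks too. These paired counts are for members only, so they do not set members apart from other marked promoters. The fold enrichment given by the peak caller went the other way, with medians of 2.97 and 2.98 in control and 4.55 and 4.24 in ex14D (higher at 63 of the 91 and 46 of the 74), and its median was higher in ex14D at other marked promoters too (3.41 and 3.20 against 4.97 and 5.595). Counting a member whose control peak was in 1 library only, 15 members had no peak in either ex14D library. They were Pbx3, Ubtd1, Pdgfa, Rdh10, Mtag2, Magee1, Zswim6, Arntl, 2700081O15Rik, Psd, Kcnab2, Usp3, Ncam1, Mir146b and Apcdd1. Peaks remained in both ex14D libraries at Ttc9b, Igf2bp2 and Baz1a, where the ex14D CPM were near or below the input CPM. Their read counts were above input, with 40 and 42 against 20 at Ttc9b. The counts were 56 and 40 against 13 at Igf2bp2, and 53 and 43 against 21 at Baz1a. At the start site itself, a peak covered 83.3% and 88.9% of members in control and 62.0% and 41.7% in ex14D, and 1 kb into the gene 94.4% and 95.4% in control and 83.3% and 71.3% in ex14D. Peaks thus lay more often inside the gene than over its start in both genotypes. The rule chose members by low ex14D reads around the start site, so a larger loss there was built in.

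EZH2 domains, called by the authors in libraries the rule did not use, were fewer in ex14D at members and over all genes. A domain overlapped the window of 90 and 100 members in the control libraries and of 62 and 54 in the ex14D libraries. Of 88 members with a domain in both control libraries, 50 (56.8%) had one in both ex14D libraries, 15 in 1 and 23 in neither. This was near the share over all placed genes, where 2532 of 4090 (61.9%) had a domain in both ex14D libraries and 1021 in neither. Other marked promoters had a domain in both control libraries in 2371 cases, and 2002 of these (84.4%) had one in both ex14D libraries and 188 in neither. The share depended on the control level of H3K27me3, and was lower in members at each level. Between 2- and 3-fold over input, 21 of 45 members (46.7%) and 384 of 633 other promoters (60.7%) had a domain in both ex14D libraries. Between 3- and 4-fold it was 16 of 23 (69.6%) and 378 of 458 (82.5%), and between 4- and 8-fold 13 of 20 (65.0%) and 862 of 900 (95.8%). These shares were not tested, because genes are not replicates of a genotype. The median domain at members was 3 and 4 kb wide in control and 2 and 2 kb in ex14D, in steps of the caller's bins.

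**Figure D3:**
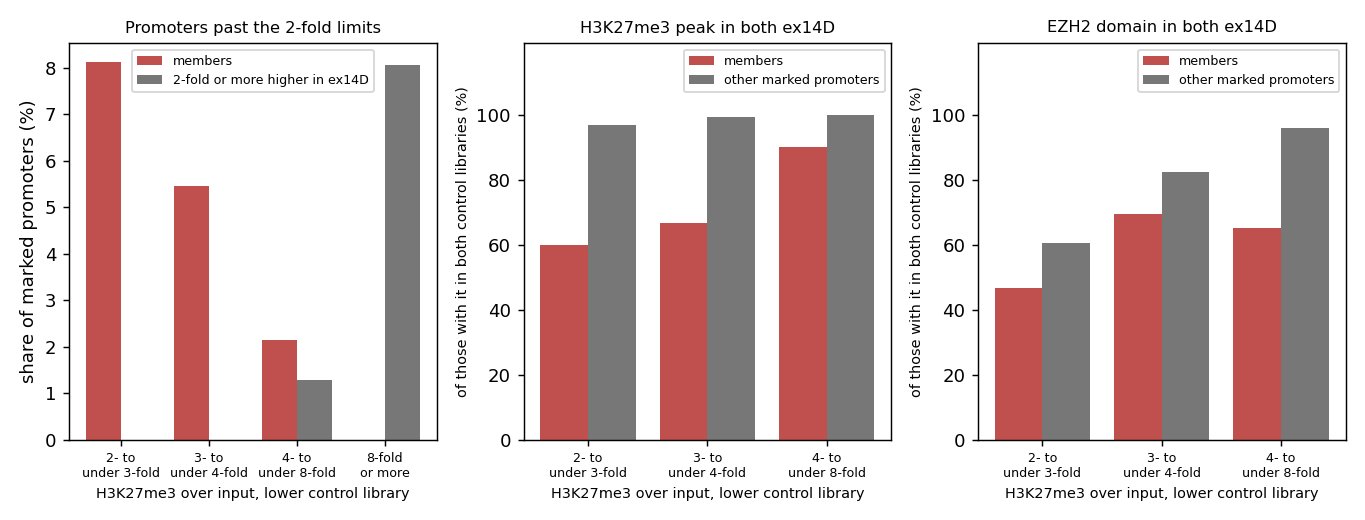
Left, the share of marked promoters (y axis, %) that were members or at least 2-fold higher in ex14D, by H3K27me3 over input in the lower control library (x axis). Center and right, of promoters with an H3K27me3 peak or EZH2 domain in both control libraries, the share (%) with one in both ex14D libraries, for members (red) and other marked promoters (grey). Members fall from 8.12% to 0 with rising control level, and the red bars are lower than the grey ones in all 3 groups of both panels. The x axis uses control values that the rule also used, so the left panel is not independent of the choice of members. The peaks in the center panel came from the libraries that the rule used, so lower red bars there follow from the choice of members.

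H3K27me3 peaks and EZH2 domains did not always go together at a member. The counts below are for members only, so they do not set members apart from other marked promoters. Because the rule chose members by low ex14D H3K27me3 reads, a missing ex14D peak was favored by that choice. In 37 members an H3K27me3 peak and an EZH2 domain were both found in both ex14D libraries. In 25 members the peak was found in both ex14D libraries and the domain in neither, as at Aqp3, Bsn, Shisa7 and Tle2. In 6 members it was the reverse, with a domain in both ex14D libraries and a peak in neither. These were Pbx3, Pdgfa, Zswim6, Arntl, Usp3 and Ncam1. Another 6 members had neither a peak nor a domain in ex14D, namely Mtag2, Magee1, 2700081O15Rik, Psd, Kcnab2 and Mir146b. A domain was absent from both control libraries at 6 members (Ccer2, Lin7b, Mir146b, Mtag2, Psd and Sp6), so EZH2 was not detectable there by domains even in control.

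**Figure D4:**
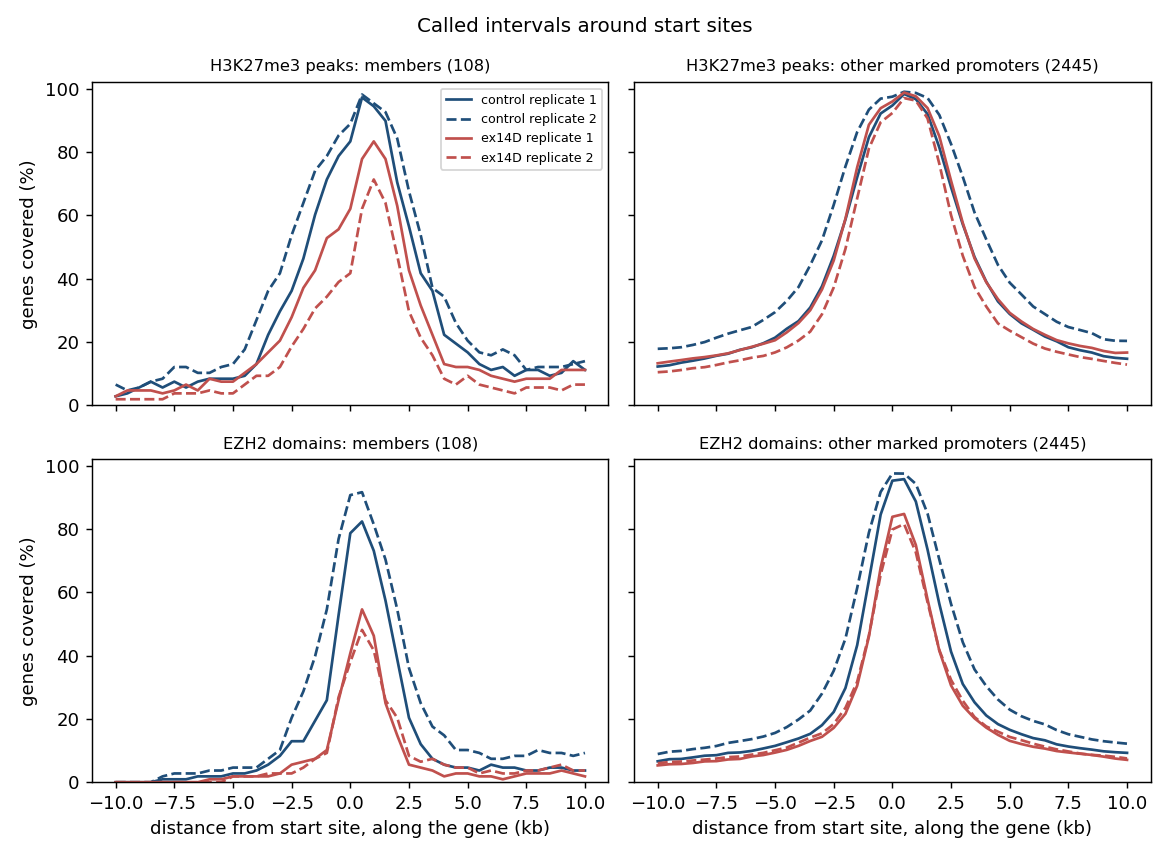
Percent of members (left) and of other marked promoters (right) covered by an H3K27me3 peak (top) or an EZH2 domain (bottom) at each distance from the start site along the gene, in kb, with 1 line per library (solid, replicate 1; dashed, replicate 2). At members both ex14D lines (red) lie below both control lines (blue) near the start site, with EZH2 domains covering 40.7% and 38.0% of start sites in ex14D against 78.7% and 90.7% in control, and at other marked promoters 83.9% and 79.9% in ex14D against 95.3% and 97.6% in control, where the H3K27me3 lines of the genotypes overlap.

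EZH2 read counts gave a test that was independent of the rule. The quasi-likelihood test of edgeR was fitted to the whole table, and p-values were adjusted by the Benjamini-Hochberg method over its 13401 tested genes, with a threshold of 0.05. Of these genes 7.88% had lower counts in ex14D and 0.0522% had higher counts. Members listed at 0 reads in every EZH2 library numbered 48, among them Ubtd1, Cdkn2c, Rnf220, Baz1a, Hcn2 and Myb, and could not be tested, as was true of 10575 of all genes. An EZH2 domain lay over the promoter of 40 of these 48 members in both control libraries, so a listed 0 does not mean that EZH2 was absent. Of the 60 members tested, 18 (30.0%) fell in ex14D and 0 rose. At an unadjusted p under 0.05 (edgeR) these numbers were 28 and 0, against 1692 and 452 of all 13401 genes and 1008 and 8 of 1451 other marked promoters. DESeq2 called 7 members lower and 0 higher, and 743 lower and 0 higher over all 13925 genes it tested. The median log2 fold change was -0.15 in members, from -1.73 to 0.11, and it was 0.02 in all genes tested. Negative values made up 55 of 60 in members (91.7%), near the 90.3% of other marked promoters, and 45.0% in all genes tested. In other marked promoters 748 of 1451 genes (51.6%) fell, with a median of -0.35. The share of members that fell was thus above that of all genes and below that of other marked promoters. With 1 EZH2 library left out, the spread of the genotype with a lone library could only be taken from the other genotype. Calls from such fits therefore do not show which libraries the 18 calls rested on. The median log2 fold change of members was -0.16 without control replicate 1 and -0.17 without control replicate 2. It was -0.17 without ex14D replicate 1 and -0.16 without ex14D replicate 2.

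The largest decreases in EZH2 counts were at genes shorter than 50 kb. Fzd8 had 48.8 and 51.1 CPM of EZH2 reads in control and 21.0 and 10.6 CPM in ex14D, a log2 fold change of -1.73 (standard error, SE, 0.23, with adjusted p = 0.00652 by edgeR). Klf4 had 28.9 and 26.2 CPM in control and 12.6 and 8.34 CPM in ex14D, and had a log2 fold change of -1.45 (SE 0.16, adjusted p = 0.00398, edgeR). Pdgfa had 58.2 and 71.2 CPM in control and 30.9 and 28.2 CPM in ex14D, and had one of -1.18 (SE 0.11, adjusted p = 0.00341, edgeR). In these 3 genes the genotypes did not overlap, and the spread between the ex14D libraries was widest at Fzd8. Gfy had 13.1 and 11.8 CPM in control and 6.09 and 6.33 CPM in ex14D (log2 fold change -1.04, adjusted p = 0.00473, edgeR). Kcna7 had 20.1 and 23.7 CPM in control and 12.5 and 10.3 CPM in ex14D (log2 fold change -1.002, adjusted p = 0.00554, edgeR). 2700081O15Rik had 26.5 and 29.3 CPM in control and 16.1 CPM in both ex14D libraries (log2 fold change -0.84, adjusted p = 0.00341, edgeR). Of these 6 genes, Gfy and 2700081O15Rik also had EZH2 domains in both control libraries and in neither ex14D library. Smaller decreases passed the threshold at Aqp3, a water and glycerol channel (-0.72), N4bp2l1 (-0.44), Larp1b (-0.38), Tle3 (-0.36), Kit (-0.32), Nectin1 (-0.30), Gse1 (-0.27), Tshz3 (-0.27), Ptchd2 (-0.24) and Clip1 (-0.23), and at Lin7b (-0.76) and Ccdc106 (-0.63), whose counts were low. At Lin7b, 5.19 and 4.84 CPM in control stood against 3.23 and 2.86 CPM in ex14D, and no EZH2 domain was called at its promoter. Of the 18 calls, DESeq2 kept those of Fzd8, Klf4, Pdgfa, Gfy, Kcna7, 2700081O15Rik and Aqp3 and ended the other 11, and a replicate block kept those of the first 6 and of Tshz3, Larp1b and Nectin1 and ended 9.

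Several members with large H3K27me3 differences had small EZH2 differences. Pbx3 had an EZH2 log2 fold change of -0.07 (adjusted p = 0.491, edgeR), Gfod1 -0.09 (adjusted p = 0.455, edgeR) and Ttc9b -0.07 (adjusted p = 0.917, edgeR). Igf2bp2 had -0.20 (adjusted p = 0.212, edgeR) and Gkap1 -0.28 (adjusted p = 0.0845, edgeR). None of these passed the threshold, which does not show that EZH2 was equal at their promoters. Pbx3 and Gfod1 had an EZH2 domain over the promoter in all 4 libraries.

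The EZH2 fold changes varied with gene length. That EZH2 reads were counted over the gene, of which the promoter is a smaller part in a long gene, is inferred here from the counts and was not tested. Members were longer than other marked genes, with a median of 46.0 kb against 29.9 kb, and 53.6 kb against 32.9 kb among those tested. For genes shorter than 10 kb, 8 of 14 members (57.1%) and 306 of 381 other marked genes (80.3%) fell, with median log2 fold changes of -0.67 and -0.95. For genes of 10 to under 50 kb, 3 of 13 members (23.1%) and 293 of 472 others (62.1%) fell, with medians of -0.21 and -0.45. For genes of 50 kb or longer, 7 of 33 members (21.2%) and 146 of 594 others (24.6%) fell, and both medians were -0.09. The share of calls was thus lower in members among genes shorter than 50 kb. In the longest genes, which held 33 of the 60 tested members, the shares were close. Grouped by control H3K27me3 level instead, 7 of 35 members (20%) and 35.2% of others were called between 2- and 3-fold over input, 6 of 12 (50%) and 44.5% between 3- and 4-fold, and 5 of 13 (38.5%) and 59.4% between 4- and 8-fold. The order of members and others was therefore reversed in the middle group.

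**Figure D5:**
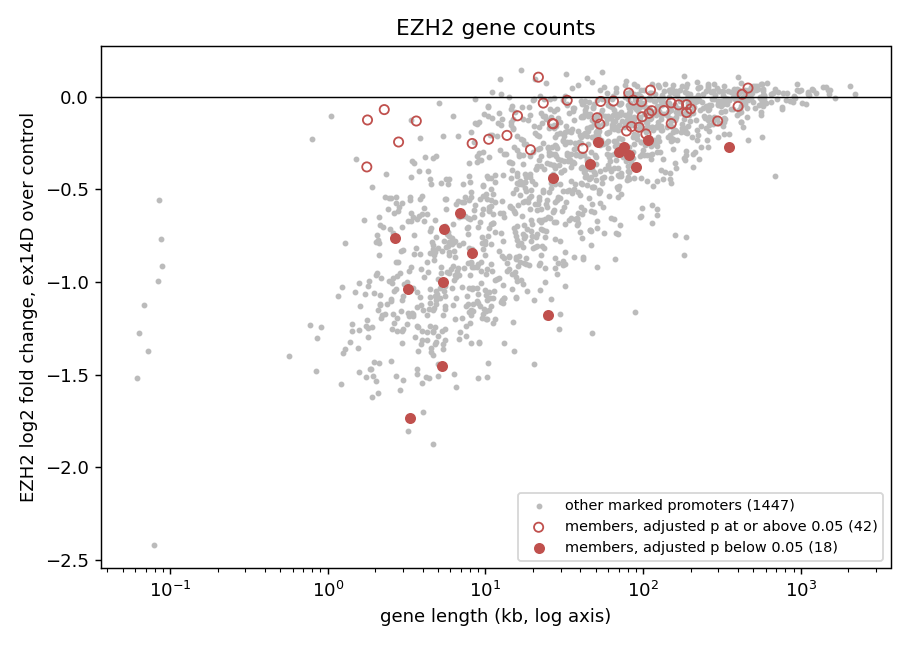
EZH2 log2 fold change of ex14D over control (y axis) against gene length in kb (x axis, log) for 60 members (red; filled where the adjusted p was below 0.05) and 1447 other marked genes placed on the genome (grey). Values near 0 prevail in long genes of both sets, and the 6 members at or below -0.84 are all shorter than 50 kb.

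The members were scattered over the genome. They lay on 19 chromosomes, from 0 of 80 marked promoters on chromosome 14 to 7 of 87 (8.05%) on chromosome 19 and 13 of 172 (7.56%) on chromosome 7. Members included 103 protein-coding genes, 3 microRNA genes, 1 long noncoding RNA gene and 1 transcribed pseudogene. Adjacent members lay within 100 kb of each other in 4 pairs. 2700081O15Rik and Mir6991 were 4948 bp apart on chromosome 19, and Psd and Mir146b 15606 bp apart on the same chromosome. Mtag2, Lin7b and Kcna7 lay in a row on chromosome 7, with 4403 bp and 35396 bp between their start sites. Members of a pair could still differ. Mir6991 had 200.2 and 204 CPM in control and 48.2 and 41.7 CPM in ex14D. The window of 2700081O15Rik had 111 and 107 CPM in control and 43.4 and 22.4 CPM in ex14D. The windows of Dlgap4, Kcnab2, Mir5126, Mtag2, Sgms1 and Ubtd1 overlapped that of another counted gene, so reads there could be split or left out in counting and their values are less certain.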

How the data were processed

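The authors aligned reads to mm10 with Bowtie (Bowtie2 per the labels), and the deposited values are raw read counts per gene from htseq-count. The methods define 1 kb promoter windows around the 5′ most TSS. Reads on no gene (92.4% to 98.1% of H3K27me3 and input reads, 55.7% to 56.1% of EZH2 reads) stayed out of library sizes. Tool versions are not given in the sources used here.

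MACS2 broad peaks of H3K27me3 were deposited by the authors for each library, with fold enrichment (a ratio) and −log10 p and q, of which positions and fold enrichment were used here. EZH2 domains of hiddenDomains were deposited by the authors as positions. H3K27me3 domains follow another assembly and were not used.

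EZH2 counts were compared with edgeR 4.0.16 in R 4.3.3 (TMM scaling, genes kept by filterByExpr, quasi-likelihood test, p adjusted by Benjamini-Hochberg), after a test on simulated data. DESeq2 1.42.0 was an alternative. Other calculations used Python 3.11.15 and pysam 0.24.0. Windows were rebuilt from RefSeq on GRCm38.p6, which placed 24368 of 24500 genes and all 108 members. A window overlapped an interval by at least 1 bp.

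The members, gene lists and named genes were chosen with earlier results of these data known. Members were named for the 10 lowest ratios, the 10 highest control levels, the 10 lowest adjusted p for EZH2, the limit of the rule and list membership; other members were named after their values were seen, as were the role groups. Alternatives covered library scaling, count minimum, input, test and each library left out.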

Additional observations from a re-analysis of the deposited data

How the results depend on the processing

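The number of members depended on library scaling. Against 108, TMM effective library sizes gave 28, DESeq2 size factors 35 and all counted reads for the ratio alone 34 (the last chosen after seeing the data). With all counted reads throughout, 98 promoters met the rule, but 34 of them were the same. With 1 H3K27me3 library left out, 113 to 253 promoters met the rule, 235 or more when it was control replicate 1 (244), control replicate 2 (253) or ex14D replicate 1 (235). The mean of both inputs kept 97 members, and at least 50 counts kept 98.

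For EZH2, members called lower (18) numbered 7 with DESeq2, 9 with a replicate block, 4 of 17 tested with members chosen after TMM, and 0 to 27 with 1 EZH2 library left out, where the lone library was assumed to vary like the other genotype. Without members with overlapping windows (chosen after seeing the data) 18 remained. Deviations of libraries with the same number had a correlation of -0.03 over 13401 genes, so the replicate block pairs libraries that share only a number. Over all genes, 1056 lower calls became 743 to 1073 under other settings and 0 to 1561 with 1 library left out. The 7 higher calls became 47 after scaling by library size, 33 after scaling by all counted reads, 3 with the replicate block, 0 by DESeq2 (7 by its unadjusted p, under 0.05) and 0 to 81 with 1 library left out. The median of members (-0.15) was -0.11 after scaling by library size, -0.12 after scaling by all counted reads, -0.16 with at least 50 counts, and -0.17 to -0.16 with 1 library left out. The causes of these differences were not tested. H3K27me3 depth limits the weakest members, which held 21 reads in a control library and 10 in an ex14D library.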
